A study of Ulva lactuca with 7 samples.

Results

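The transcripts described here are the low-GC members of a transcriptome assembled from Ulva lactuca, a sheet-like green seaweed of the intertidal zone. They were chosen by base composition and by measured read counts: a GC content under 35%, a mean count of 10 or more over the 7 libraries, and 3 or more counts in each library. Of 137594 assembled transcripts, 96 met the rule, and they belong to 82 of 90206 assembled genes. Since counts chose them, their presence in every library is given by the rule and is not a finding. The rule names no order of the libraries, but asking for 3 counts in each leaves out transcripts nearly confined to some of them. The order described below is thus that of the transcripts the rule kept, and those it left out are described further below.

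Thalli were kept in the laboratory and sampled in 7 conditions, with 1 library for each condition. The control was always submerged. The other thalli lost water at 20% moisture over 24, 36 or 72 h. For each period some were taken dry, and some after 1 h back in autoclaved seawater. These conditions are called control, dried and resubmerged here, with the drying period. No genotype, strain or age of the thalli is given in the labels, and nothing says whether 1 or several thalli went into a library.

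Seaweeds of the intertidal zone lose water when the tide leaves them in air and take it up again when the tide returns. A green algal cell holds separate genomes in the nucleus, the chloroplast and the mitochondrion. Chloroplast and mitochondrial genomes of green algae are generally poorer in guanine and cytosine than the nuclear genome, and they encode ribosomal RNAs and proteins of photosynthesis and respiration. Untranslated ends and spacers of nuclear transcripts, and transcripts of organisms that live on a thallus, can be poor in these bases too. The files pair none of the 96 identifiers with a gene name, so no compartment, function or organism is given to any of them here.

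Counts summed to between 63782317 and 97270080 per library. These sums are 2.56 to 2.91 times the totals that the deposited FPKM values imply, and isoforms of an assembled gene appear to share reads. Counts were scaled between libraries by trimmed means (TMM, factors of 0.818 to 1.19) and are given as CPM, the count set against a common library size. With 1 library for each condition, a difference between any 2 libraries has no replicate check, and its counting interval leaves out the spread between thalli. In whole thalli, fewer cells of a kind and less RNA per cell cannot be told apart.

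The 96 transcripts were short as well as poor in GC. Their lengths ran from 215 to 4297 nt with a median of 594 nt, against 1759 nt for all 66046 transcripts that had a mean of 10 or more counts. Their GC content lay between 19.3 and 34.9% with a median of 30.8%, against 56.8% for all transcripts compared. Their counts covered a wide range: 34 had a mean count under 50 over the libraries, and 30 had a mean of 1000 or more. The smallest count over the libraries was 3 in 10 members, under 10 in 37, and 100 or more in 33. The transcript c18755_g1_i1 (245 nt, 33.5% GC) had a mean of 17846 FPKM, the highest per-length level among the 96. The longest, c34696_g1_i1 (4297 nt, 33.3% GC), had a mean of 688 FPKM.

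A small group among them had an unusual composition. In 11 members, from 10 assembled genes, the rarer of cytosine and guanine made up under 5% of both together, 7 being nearly without cytosine and 4 nearly without guanine. In 3 of them no cytosine was present at all, and in another 3 no guanine. The transcript c29169_g1_i2 (2087 nt) has 668 guanines and 0 cytosines, and c49849_g1_i1 (1224 nt) has 359 cytosines and 0 guanines. The member of lowest GC, c12889_g1_i1 (264 nt, 19.3% GC), has 51 cytosines, 0 guanines and 138 adenines. Over all 66046 transcripts compared only 12 had such a composition, among them 1 of the low-GC transcripts that missed the presence rule, and 0 of the 65886 at 35% GC or more did. The whole assembly holds 95 of them. In the other 85 members the rarer base made up at least 13.2% of guanine and cytosine together.

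**Figure D1:**
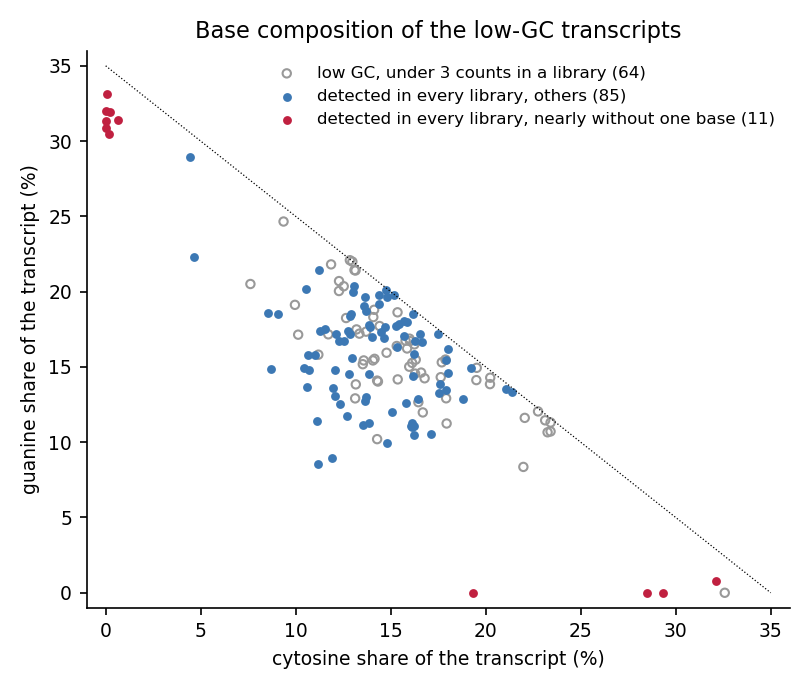
Cytosine share (x axis, percent of the transcript) against guanine share (y axis, percent) for each low-GC transcript with a mean count of 10 or more, the dotted line marking 35% GC. The 11 members nearly without 1 of both bases lie along the axes, away from the other 85, and open circles are the 64 transcripts that missed 3 counts in a library.

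Most members stood alone in their assembled gene. Of the 82 genes, 71 held 1 member and 11 held several, with 25 members among them and at most 3 in a gene. In 66 genes the member was the only assembled transcript. The members' genes had 11 further transcripts, of which 8 had 35% GC or more. How alike the counts of a gene's members were varied: of c34189_g1_i1 and c34189_g1_i2, the lower count was between 0.979 and 0.998 times the higher in every library, while in c34618_g1 the lowest was between 0.0890 and 0.128 times the highest. The 3 isoforms of c34618_g1, c33256_g1 and c20732_g1 are described below, and their counts are not independent.

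The members took their largest share of a library after 24 h of drying. They held 1.07% of all counts in the control, 3.61% after 24 h of drying, 1.5% after 36 h and 0.610% after 72 h. The resubmerged libraries stood at 0.634, 0.637 and 0.615% after 24, 36 and 72 h of drying. That these shares are close rests on 1 transcript, c33627_g2_i1, with 215200 of the members' 541346 counts in the library resubmerged after 36 h. Without it the summed scaled level there was 0.376 times the control, in place of 0.624 times. After 24 and 72 h it was 0.698 and 0.522 times the control, with or without that transcript. The Wilson 95% intervals are narrow at this depth (3.603 to 3.610% in the library dried for 24 h) and cover counting error only. Taken against the totals that FPKM implies, the shares were 2.88% in the control, 9.25% after 24 h of drying and 1.65 to 4.12% in the other libraries, and the library dried for 24 h was again the highest. The summed scaled level was 44133 CPM after 24 h of drying and 9962 CPM in the control, a ratio of 4.43, and 5493 CPM after 72 h of drying, a ratio of 8.03 between the dried libraries.

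A few members made up most of these sums. The 10 most counted held 78.8 to 88.7% of the members' counts in a library. The most counted was c27893_g2_i1 in the 3 dried libraries, c18755_g1_i1 in the control and in the libraries resubmerged after 24 and 72 h, and c33627_g2_i1 in the library resubmerged after 36 h. In that last library c33627_g2_i1 alone took 39.8% of the members' counts. Without the top member of each library the share was 0.897% in the control, 2.75% after 24 h of drying and 0.384 to 1.20% elsewhere, so the library dried for 24 h remained the highest.

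**Figure D2:**
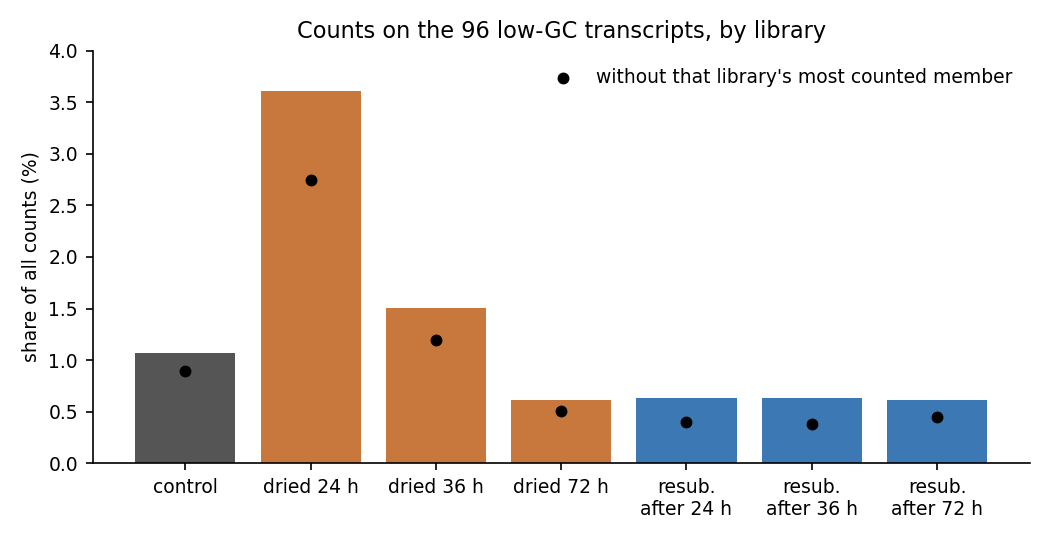
Share of all counts (y axis, percent) taken by the 96 low-GC transcripts in each of the 7 libraries (x axis), bars for all members and black points without the most counted member of that library. The library dried for 24 h stands at 3.61% against 1.07% in the control, and the library dried for 72 h and the 3 resubmerged libraries lie between 0.610 and 0.637%.

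Counted transcript by transcript, the same library stood out. Of the 96 members, 66 (68.8%) had their highest scaled level after 24 h of drying, against 19.1% of the 58277 transcripts of any GC that had 3 or more counts in every library and a mean of 10 or more. The control was highest for 9 members, against 16.6% of these transcripts. The library dried for 36 h was highest for 13 (13.5%), near the 14.5% of these transcripts. For the library dried for 72 h the number was 3 (against 11.2%). For those resubmerged after 24, 36 and 72 h it was 4, 1 and 0 (against 14.9, 17.2 and 6.51%). The lowest level was in the library resubmerged after 36 h for 39 members, against 20.0% of these transcripts. It was in the one dried for 72 h for 23 (against 13.6%) and in the one resubmerged after 72 h for 21 (against 7.03%). On the log2 scale, the median member stood 1.79 above its own mean after 24 h of drying, 0.65 above it after 36 h and 0.56 above it in the control. It stood at -0.79 after 72 h of drying, and at -0.41, -1.17 and -0.88 in the libraries resubmerged after 24, 36 and 72 h. The median transcript detected in every library stayed within 0.07 of its own mean in all 7.

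**Figure D3:**
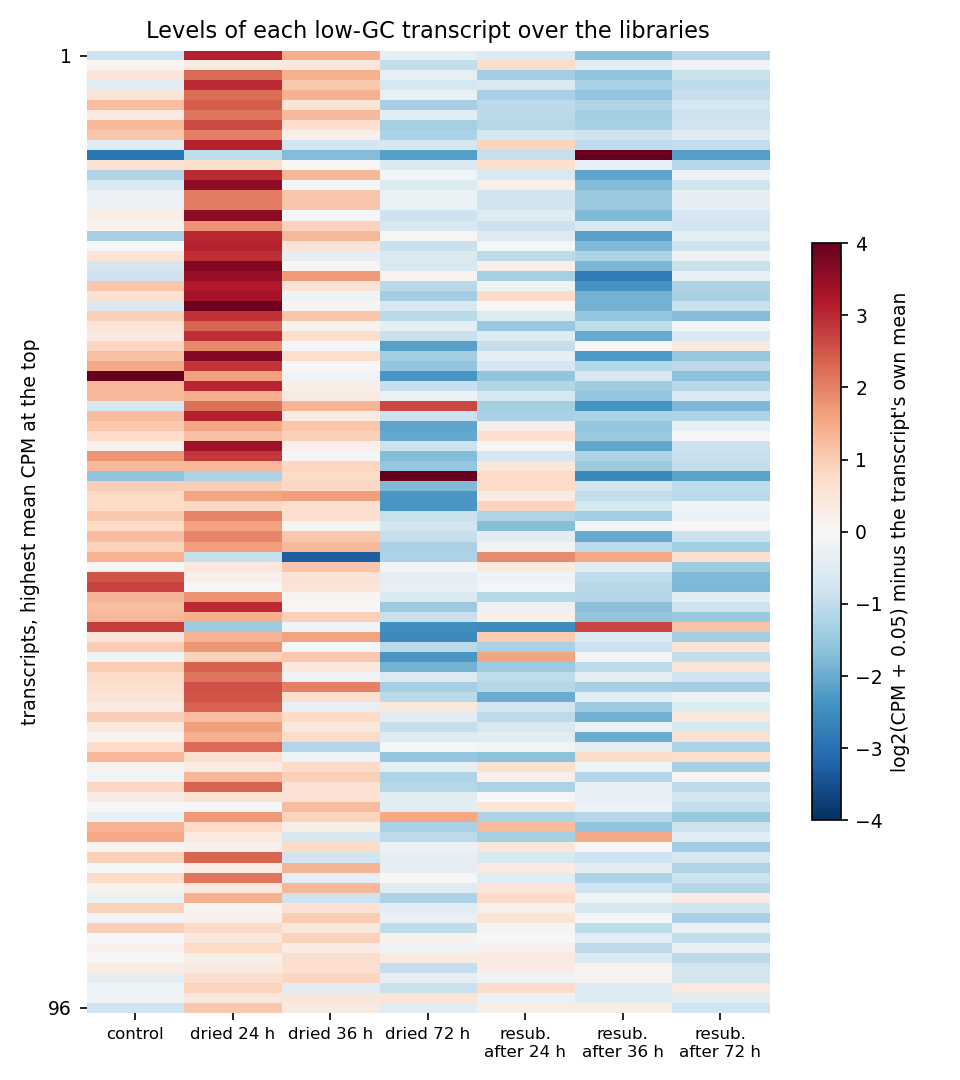
Level of each of the 96 low-GC transcripts (rows, highest mean CPM at the top) in each library (columns), as log2(CPM + 0.05) minus the transcript's own mean, red above and blue below it. The column of the library dried for 24 h is red for most rows, 66 of 96 having their highest level there, and single rows such as that of c33627_g2_i1 depart from the others.

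The member with the most counts over the series was c27893_g2_i1 (1668 nt, 34.8% GC). It had 46831 counts in the submerged control, 835007, 272216 and 67213 after 24, 36 and 72 h of drying, and 68905, 33704 and 52123 after resubmergence from these periods. On the scaled level it was 15.5 times the control after 24 h of drying (95% counting interval 15.4 to 15.7), 4.94 times after 36 h and 1.40 times after 72 h. Its level after resubmergence was 12.4-fold, 8.65-fold and 1.69-fold below that of the dried library of the same period. All 3 dried libraries thus lay above the control and above their resubmerged partners, but the fitted change on resubmergence was -2.55 on the log2 scale (SE 0.79) with an adjusted p = 0.167 (edgeR's quasi-likelihood test, Benjamini-Hochberg), which does not pass 0.05.

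The next by counts, c18755_g1_i1 (245 nt), had the second largest mean level and 1 of the 3 smallest ranges among the members. Its scaled levels were 1621 CPM in the control, 1925, 2095 and 782 CPM after 24, 36 and 72 h of drying, and 2538, 1120 and 1402 CPM after resubmergence. The dried and resubmerged libraries overlapped, and its levels spanned 1.70 on the log2 scale where the median member spanned 3.79. The 2 other members of smallest range were counted little: c12889_g1_i1 had between 6 and 15 counts in every library, and c27607_g1_i2 (663 nt, 189 cytosines and 0 guanines) between 14 and 37. At those counts an interval on a ratio spans several fold, as in the 1.86-fold ratio of c12889_g1_i1 after 24 h of drying against the control (0.716 to 5.41).

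The 3 isoforms of c33256_g1 (1568 to 2103 nt) followed each other. The longest, c33256_g1_i1, had 1358 CPM in the control, 4628, 2595 and 771 CPM after 24, 36 and 72 h of drying, and 381, 319 and 521 CPM after resubmergence. All 3 resubmerged libraries were below the control and below every dried library. The level after resubmergence was lower by 12.1-fold after 24 h (12.0 to 12.3), 8.14-fold after 36 h and 1.48-fold after 72 h, with a fitted log2 change of -2.45 (SE 0.78; edgeR adjusted p = 0.171). The isoforms c33256_g1_i2 and c33256_g1_i3 had fitted changes of -2.44 and -2.14, and neither passed (adjusted p = 0.161 and 0.172, edgeR).

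The pair of isoforms of c34610_g1 (2358 and 2506 nt) had a different relation to the control. The longer, c34610_g1_i1, stood at 871 CPM in the control, at 2079 CPM after 24 h of drying, and already below the control at 548 and 136 CPM after 36 and 72 h. After resubmergence it stood at 156, 137 and 198 CPM, which is 5.59-fold, 6.34-fold and 4.39-fold below the control. The library dried for 72 h was as low as the resubmerged ones. Its partner c34610_g1_i2 ran alongside, with 962 CPM in the control and 2217 CPM after 24 h of drying.

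The longest member, c34696_g1_i1, had 34805 counts in the submerged control, 430921, 116466 and 29768 after 24, 36 and 72 h of drying, and 36553, 23993 and 30918 after resubmergence. It was 10.8-fold above the control after 24 h of drying (10.7 to 10.9) and 1.20-fold below it after 72 h. Only the libraries dried for 24 and 36 h stood above the others. Its shorter isoform c34696_g1_i2 (1948 nt) had 86557 counts after 24 h of drying and 2299 to 7596 in the other libraries.

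The 3 isoforms of c34618_g1 (496 to 1933 nt) stood high in a single library. The longest, c34618_g1_i2, had 5640 counts in the submerged control, 117085, 9731 and 6029 after 24, 36 and 72 h of drying, and 11511, 3241 and 6588 after resubmergence. It was 18.1-fold above the control after 24 h of drying (17.6 to 18.5), and within 1.47-fold of it after 36 and 72 h. The short isoforms had ratios of 20.7 and 22.3 after 24 h. The 3 counted isoforms of c20732_g1 (531 to 1267 nt, 24.7 to 28.4% GC) had the same highest library: c20732_g1_i2 stood at 10.3 CPM in the control, 34.5 CPM after 24 h of drying, 4.92 and 2.15 CPM after 36 and 72 h, and 1.52 to 1.87 CPM after resubmergence.

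Resubmergence for 1 h was compared with the dried library of the same period. After 24 h of drying, 81 of 96 members had a lower level in the resubmerged library, with a median log2 ratio of -2.57, and 56 were at least 4-fold lower, where 3.29% of all transcripts compared were. After 36 h, 88 were lower with a median of -1.65, and 35 were at least 4-fold lower, against 7.02% of all. After 72 h the members were evenly divided: 51 were lower, the median was -0.08 (0.00448 with total-count scaling), and 3 were at least 4-fold lower against 7.51% of all. Among the 58277 transcripts of any GC that met the same count rules, the share after 72 h was 3.85%, near the 3.1% of the members. After 24 and 36 h it was 2.42 and 6.47%. Members at least 4-fold higher numbered 2, 4 and 5 after 24, 36 and 72 h, against 5.51, 12.8 and 4.11% of all. Among those 58277 the shares were 3.92, 10.3 and 2.69%. The median over all transcripts was within 0.03 of 0 for each of these pairs.

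In all 3 periods 41 members were lower after resubmergence and 2 were higher, against 24.0 and 24.6% of all transcripts compared. At least 4-fold lower in all 3 periods were c34165_g1_i2 and c17410_g1_i1, or 2 members, against 0.233% of all. In 18 members (18.8%) every dried library lay above every resubmerged one, against 12.5% of all transcripts. In 1 member, c32747_g1_i1, every dried library lay below every resubmerged one, against 14.8% of all.

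Treating the 3 periods as repeats, with the period as a block and 6 libraries, no member passed. In edgeR's quasi-likelihood test, adjusted by Benjamini-Hochberg over 66046 transcripts, 0 members and 1 transcript in all were called at an adjusted p under 0.05, or 0.00151% of those tested. At an unadjusted p under 0.05, 30 members were lower against 8.95% of all transcripts, and 1 was higher against 11.8%. The fitted change was negative in 86 members, with a median of -1.30 against -0.06 over all. DESeq2 called 24 members lower, against 3.99% of all transcripts to which it gave an adjusted p, and 1 higher, against 6.79%. It gave an adjusted p to 92 of the 96. With limma-voom 0 members and 0 transcripts were called. Without the filter on low counts edgeR called 32 members lower and 2 higher, against 2.66 and 3.25% of all, and the cause of that difference was not tested. In edgeR's fit with the filter, 13708 of the 66046 transcripts had an unadjusted p under 0.05, both directions together. Their number with a library left out is not given here, and such fits have fewer residual degrees of freedom. How the share of members moves is therefore not read as a result about them. The share of members at an unadjusted p under 0.05 was 32.3%. It was 7.29% without the library dried for 24 h, 6.25% without its resubmerged partner or without both, and 53.1 to 54.2% without one or both of the 72 h libraries. Removing a smooth trend of each library's level with GC content brought the share to 7.29% and the median to 0.13, although few transcripts inform that trend under 35% GC. The members were 96 of the 160 transcripts under 35% GC in that fit. The trend thus takes up the members' own levels, a smaller change is in part built in, and no conclusion is drawn from it.

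**Figure D4:**
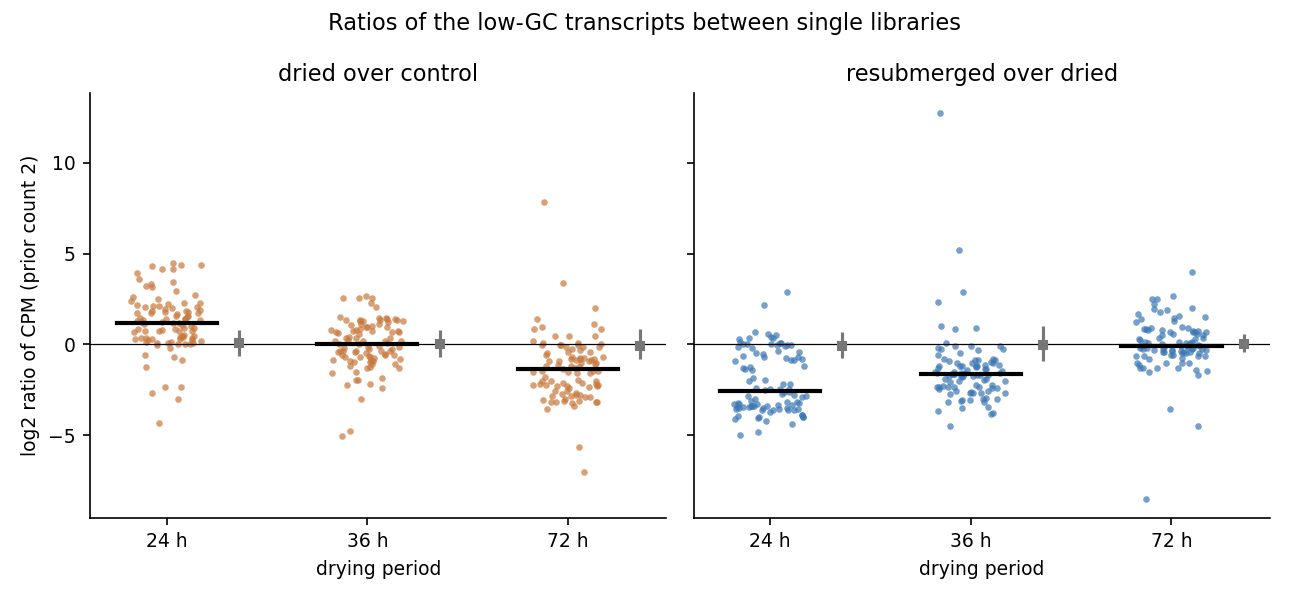
Log2 ratios of scaled CPM (y axis, prior count 2) of the 96 low-GC transcripts for dried over control (left) and resubmerged over dried (right), by drying period (x axis). Points are transcripts, black bars their medians, and grey squares with bars the median and quartiles of the 58277 transcripts detected in every library; the members' median goes from 1.20 to -1.34 on the left and from -2.57 to -0.08 on the right.

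The smallest adjusted p for resubmergence among the members, 0.153, was shared by 4 of them: c34165_g1_i2, c17410_g1_i1, c32747_g1_i1 and c24840_g1_i1. Of these, c34165_g1_i2 (472 nt, 33.7% GC) had the largest fitted change. This transcript had 156 counts in the submerged control, 1370, 785 and 1684 after 24, 36 and 72 h of drying, and 119, 58 and 96 after resubmergence. All dried libraries lay above the control and all resubmerged ones below it, with no overlap. Resubmerged levels were 11.8-fold (9.76 to 14.3), 14.5-fold (11.1 to 19.3) and 23.0-fold (18.7 to 28.6) below the dried ones. The fitted log2 change was -3.98 (SE 0.40; edgeR adjusted p = 0.153), which does not pass 0.05. Another transcript of that gene, c34165_g1_i3 (392 nt, 41.8% GC, not a member), had 88, 647, 408, 1552, 101, 16 and 52 counts in the same order of libraries.

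The other members with the lowest ratios in all 3 periods were counted little. The transcript c17410_g1_i1 (504 nt) had 10 counts in the control, 59, 32 and 46 in the dried libraries, and 4, 5 and 3 in the resubmerged ones. It was lower after resubmergence by 15.1-fold (5.59 to 57.2), 6.85-fold (2.65 to 22.5) and 20.1-fold (6.47 to 101), with wide counting intervals, and the edgeR adjusted p was 0.153. In c17055_g1_i1 the dried libraries had 141, 19 and 30 counts and the resubmerged ones 13, 7 and 18, the difference being 11.1-fold after 24 h and 2.19-fold after 72 h. In c54778_g1_i1 they had 67, 9 and 11 against 8, 3 and 6. For c12889_g1_i1, with 15, 15 and 14 against 8, 6 and 7 counts, the intervals of the 24, 36 and 72 h ratios all include 1.

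Higher after resubmergence in all 3 periods were c32747_g1_i1 and c33627_g2_i1. The transcript c32747_g1_i1 (401 nt, 32.7% GC) had 195 counts in the submerged control, 42, 5 and 29 after 24, 36 and 72 h of drying, and 329, 275 and 155 after resubmergence. It was lower than the control in each dried library, by 5.34-fold, 45.9-fold and 6.89-fold, and stood at 1.43, 1.12 and 0.591 times the control after resubmergence from 24, 36 and 72 h. The resubmerged level exceeded the dried one 7.66-fold (5.54 to 10.8) after 24 h, 51.4-fold (21.7 to 159) after 36 h and 4.07-fold (2.73 to 6.28) after 72 h, with a fitted log2 change of 3.38 (SE 0.85; edgeR adjusted p = 0.153).

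The transcript c33627_g2_i1 (3370 nt, 25.5% GC) was all but absent in 6 libraries. It had 8, 46, 27, 16, 50 and 21 counts in the control, in the libraries dried for 24, 36 and 72 h and in those resubmerged after 24 and 72 h, and 215200 counts in the library resubmerged after 36 h. There its level was 2470 CPM against at most 0.615 CPM elsewhere, 7443-fold above the library dried for 36 h (5115 to 11294). After 24 and 72 h of drying the resubmerged and dried libraries differed by less than counting error (ratios of 1.06 and 1.00, intervals including 1). Without it the summed level of the members after 36 h was 4.40-fold lower in the resubmerged library than in the dried one, and with it 2.65-fold lower. This library also had 565 and 560 counts of c6016_g1_i2 and c6016_g1_i1 and 283 of c22647_g1_i1, low-GC transcripts outside the rule with at most 1 count in each other library, named after their values were seen; their relation to c33627_g2_i1 was not tested.

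Drying was next compared with the submerged control. After 24 h, 85 of 96 members were above the control, with a median log2 ratio of 1.20, and 25 were at least 4-fold higher against 9.8% of all transcripts compared. At least 4-fold lower were 5, against 6.48%. After 36 h the members were divided, 49 above and 47 below the control, with a median of 0.03 (-0.21 with total-count scaling), and 6 were at least 4-fold higher and 6 lower against 8.49 and 5.99% of all. After 72 h, 81 were below the control with a median of -1.34, and 36 were at least 4-fold lower against 6.04% of all, while 2 were higher against 14.2%. Among the 58277 transcripts detected in every library, 7.51, 6.48 and 9.47% were at least 4-fold higher after 24, 36 and 72 h. At least 4-fold lower were 5.83, 5.18 and 5.43% of them. Scaling by total counts in place of TMM moves the median of all transcripts after 24 h of drying from 0.10 to -0.24.

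Few members lay on the same side of the control in all 3 dried libraries. In 14 members every dried library lay above the control and in 10 every one lay below it, against 31.7 and 28.3% of all transcripts. At least 4-fold higher in all 3 was 1 member, c34165_g1_i2, against 3.93% of all, and at least 4-fold lower in all 3 were 4 members, against 1.82%, namely c24800_g1_i1, c32747_g1_i1, c29169_g1_i1 and c58844_g1_i1. Among the 58277 transcripts detected in every library these shares were 2.60 and 1.39%. The control is 1 library and enters all 3 comparisons. In the test with the state as the only term, 0 members and 0 transcripts passed at an adjusted p under 0.05 (0% of those tested, edgeR's quasi-likelihood test). At an unadjusted p under 0.05, 1 member was higher against 6.29% of all, and 5 were lower against 5.26%. DESeq2 called 1 of 92 members higher and 1 lower, against 4.03 and 1.21% of all transcripts with an adjusted p, and limma-voom called 0. Both directions together, 2.17% of the members stand below the 5.24% of all. The median fitted change was 0.44, and without the library dried for 24 h it was -0.54. Shares of members with a library left out have no share of all transcripts beside them here and are not read as a result about the members. Without the library dried for 72 h the share of members at an unadjusted p under 0.05 was 10.4% in place of 6.25%.

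Among members higher in the dried libraries, c33247_g2_i1 (594 nt, 34.7% GC) had 1943 counts in the submerged control, 45649, 14522 and 5175 after 24, 36 and 72 h of drying, and 3975, 1350 and 5094 after resubmergence. It was 20.4-fold (19.5 to 21.4), 6.35-fold and 2.60-fold above the control. The transcript c34029_g1_i1 (1320 nt, 33.3% GC) was alike, at 66.1 CPM in the control and 1195, 381 and 142 CPM after 24, 36 and 72 h of drying. In both, the dried levels were ordered by period, and the library resubmerged after 72 h (54.8 and 125 CPM) differed little from its dried partner (73.0 and 142 CPM). Neither passed against the control (edgeR adjusted p = 0.436 and 0.451). A neighbour in name, c33247_g1_i1 (486 nt), had 935 counts in the control, 21750, 6370 and 1849 in the dried libraries and 782, 298 and 1788 in the resubmerged ones.

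Among members lower in every dried library, c24800_g1_i1 (339 nt, 34.2% GC) showed the largest range but for those high in a single library. It had 4583 counts in the submerged control, 656, 192 and 34 after 24, 36 and 72 h of drying, and 68, 147 and 74 after resubmergence. The dried libraries stood below the control by 8.03-fold (7.40 to 8.73) after 24 h, 28.1-fold (24.3 to 32.6) after 36 h and 138-fold (98.7 to 199.7) after 72 h, and the resubmerged ones by 39.3-fold to 83.3-fold. Every other library stood at least 8.03-fold below the control. The fitted log2 changes were -4.16 (SE 1.14; edgeR adjusted p = 0.369) for drying and -5.90 (SE 1.19; adjusted p = 0.465) for resubmerged against control.

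The transcript c58844_g1_i1 (603 nt, 26.7% GC) had 230 counts in the submerged control, 11, 32 and 3 after 24, 36 and 72 h of drying, and 3, 272 and 97 after resubmergence. It was 24.0-fold, 8.45-fold and 78.5-fold below the control when dried. After resubmergence it stood at 0.939 times the control (0.785 to 1.12) in the library dried for 36 h, at 0.314 times (0.245 to 0.399) in the one dried for 72 h, and was 90.1-fold below it in the one dried for 24 h. The 2 members of c29169_g1, which are nearly without cytosine, were highest in the control. Of these, c29169_g1_i2 had 426 counts there, 96, 127 and 56 in the dried libraries, and 74, 42 and 25 in the resubmerged ones. Its isoform c29169_g1_i1 ran from 4.73-fold below the control after 36 h of drying to 27.8-fold below it in the library resubmerged after 72 h. Another transcript of that gene, c29169_g1_i3 (40.6% GC, not a member), had 4 counts in the control and 2 to 9 in the other libraries.

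Resubmerged libraries were also set against the control. After 24 h of drying, 64 members were below the control with a median log2 ratio of -0.82, and 23 were at least 4-fold lower against 6.73% of all transcripts, while 2 were at least 4-fold higher against 11.8%. After 36 h, 89 were below it with a median of -1.52, and 36 were at least 4-fold lower against 2.75%, with 1 higher against 11.5%. After 72 h, 88 were below it with a median of -1.22, and 21 were at least 4-fold lower against 3.29%, with 0 higher against 8.66%. Among the 58277 transcripts detected in every library, 6.01, 2.32 and 2.73% were at least 4-fold lower after 24, 36 and 72 h. At least 4-fold higher were 8.77, 7.86 and 6.43% of them. In all 3 resubmerged libraries 62 members were below the control and 2 above it, against 29.5 and 31.5% of all transcripts, and 9 were at least 4-fold lower in all 3 against 0.656%.

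In the test of resubmerged against control 0 members and 0 transcripts in all passed (0% of those tested, edgeR's quasi-likelihood test at an adjusted p under 0.05). The smallest adjusted p among members was 0.465, shared by 5 of them. For c29169_g1_i2, one of the 5, the log2 change was -3.47 (SE 0.74), with 3 of 3 resubmerged libraries below the control. At an unadjusted p under 0.05, 5 members were lower against 3.67% of all, and 0 were higher against 7.04%. These 5, the same members, were c24800_g1_i1, c62496_g1_i1, c7402_g1_i1 and both member isoforms of c29169_g1, named after their values were seen. DESeq2 called 3 of the 63 members with an adjusted p, all lower, against 0.467% of all called lower and 3.82% called in either direction, and limma-voom called 0. The share of members at an unadjusted p under 0.05 was 5.21%, and it was 15.6% without the library dried for 24 h and 21.9% without the one dried for 72 h. How the share of all transcripts moves with a library left out is not given here, so no result about the members is read from these shares. The members' median was -1.17, and with the GC trend removed 0.18, the trend being fitted with the members included.

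Within the dried libraries the members were ordered by the drying period. In 67 members (69.8%) the level was lower after 36 than after 24 h and lower again after 72 h, against 26.1% of all transcripts compared. At least 4-fold lower after 72 h than after 24 h were 67 members, against 5.23% of all, and 1 was at least 4-fold higher, against 10.3%. Among the 58277 transcripts detected in every library these shares were 4.47 and 7.25%. The presence rule bears on these counts: of the 64 low-GC transcripts it left out, 20 were at least 4-fold lower and 21 at least 4-fold higher. The median log2 difference was -0.94 from 24 to 36 h, -1.42 from 36 to 72 h and -2.79 from 24 to 72 h, where the median over all transcripts was -0.10 for the last. The median was negative at both steps. Among the resubmerged libraries the same order held for 24 members (25%, against 14.0% of all), with a median of -0.46 from 24 to 72 h. The library and the drying period cannot be told apart, since each dried condition is 1 library.

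The member at least 4-fold higher after 72 h than after 24 h was c34165_g1_i1 (561 nt, 33.9% GC), an isoform of the gene of c34165_g1_i2. It had 8 counts in the submerged control, 13, 66 and 2283 after 24, 36 and 72 h of drying, and 68, 3 and 6 after resubmergence. The level after 72 h of drying was 279-fold above the control (141 to 646), and it was 499-fold lower in the resubmerged partner (229 to 1362). A single library thus carried nearly all of its counts.

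A slope on drying hours was fitted over the 6 dried and resubmerged libraries with the state as a term. No member passed, and 0 transcripts in all did (0% of those tested, edgeR's quasi-likelihood test, adjusted by Benjamini-Hochberg). At an unadjusted p under 0.05, 11 members had a negative slope against 4.56% of all transcripts, and 0 had a positive one against 5.57%. The slope was negative in 92 of 96, with a median of -0.70 log2 units for each 24 h. DESeq2 called 3 of the 86 members with an adjusted p, all with a negative slope, against 1.18% of all called in that direction and 2.86% in either, and limma-voom called 0. The smallest adjusted p among members was 0.348, for c12398_g1_i1 (246 nt), whose slope was -1.58 (SE 0.45) and whose counts were 98, 113 and 6 in the dried and 159, 50 and 27 in the resubmerged libraries. The share of all transcripts with a library left out is not given here, so the moves that follow are not read as a result about the members. Leaving out 1 library moved the share of members at an unadjusted p under 0.05 from 11.5% to between 0 and 49.0%. It was 0% without the library dried for 72 h, 4.17% without the one resubmerged after 24 h, 5.21% without the one dried for 24 h, 25% without the one resubmerged after 36 h and 49.0% without the one resubmerged after 72 h.

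**Figure D5:**
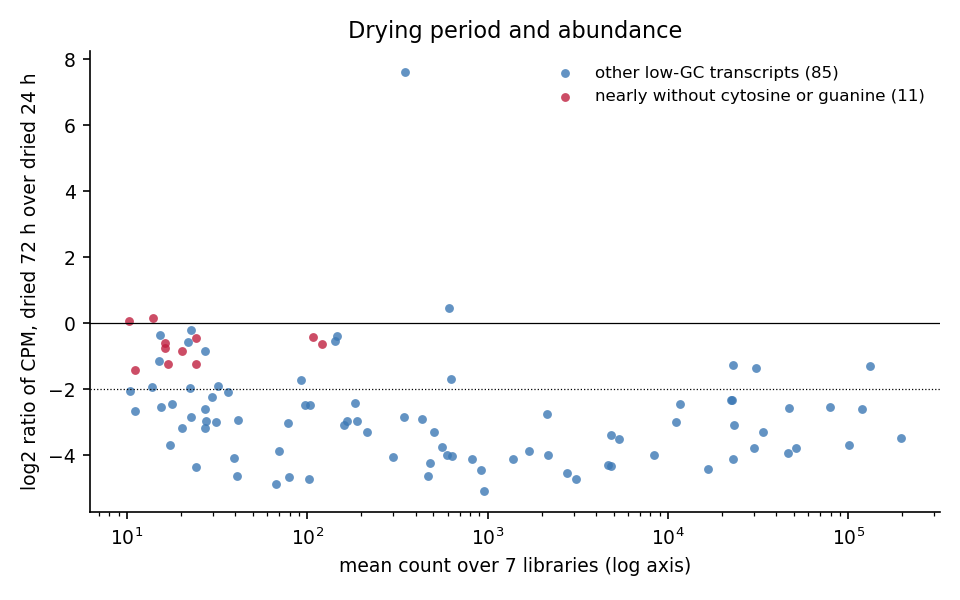
Log2 ratio of CPM in the library dried for 72 h over the one dried for 24 h (y axis, dotted line at 4-fold lower) against the mean count over the 7 libraries (x axis, log axis), 1 point for each low-GC transcript. Blue points are the other 85 members, most of them below 0 at every mean count, red points the 11 nearly without cytosine or guanine, and the high point is c34165_g1_i1.

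The ratio on resubmergence after 24 h of drying differed with length and abundance. In the 32 members under 500 nt the median log2 ratio was -0.88, in the 30 of 500 to 1000 nt -2.09, in the 23 of 1000 to 2000 nt -2.87, and in the 11 of 2000 nt or more -3.47. By mean count the medians were -0.83 for the 34 members of 10 to 50 counts, -1.28 for the 23 of 50 to 500, -3.47 for the 18 of 500 to 5000 and -3.38 for the 21 above. After 24 h of drying against the control, the most counted band had a median of 2.28 and the least counted 0.72. GC content gave no such order for this pair. The medians on resubmergence after 24 h were -2.84 under 27% GC, -2.83 at 27 to 30%, -0.89 at 30 to 33% and -3.26 at 33 to 35%. After 36 h there was an order: in the same bands the medians on resubmergence were -1.19, -1.38, -1.68 and -2.38. After 36 h of drying against the control they were -0.38, -0.26, -0.12 and 0.93. The 6 members at least 4-fold higher there all lay at 33 to 35% GC. The lower level after 72 than after 24 h of drying was present in each length band, with medians between -2.41 and -3.69. These are descriptions with no test, and isoforms within a band share reads. The rule asks for 3 counts in every library, so a member of few counts could not show a large fall and stay a member. The prior count of 2 also draws ratios of low counts toward no change. The differences between bands of abundance are thus in part set by the rule, and how large that part is was not tested, also for length.

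The 11 members nearly without cytosine or guanine had other levels than the rest. Their mean counts ran from 10.3 to 121, and together they had 976 counts in the control and 109 to 537 in the other libraries. Most of the control counts, 426 and 414, were those of c29169_g1_i2 and c29169_g1_i1, isoforms of the same gene. The control was the highest library in 3 of the 11, both isoforms among them, so the sum does not describe the group. The highest library was the one dried for 36 h in 6 of them and the one dried for 24 h in 1, where the latter was highest for 65 of the other 85. Their median log2 ratio on resubmergence after 24 h was 0.03, against -2.85 for the other 85, and 0 of them were at least 4-fold lower there, against 56 of the 85. Among all transcripts 3.29% were, so a count of 0 in 11 is near the background and is read as no result about these 11. After 36 and 72 h it was -1.45 and -1.01, against -1.68 and 0.07. After 24 h of drying their median against the control was 0.30, against 1.39 for the others. As an example, c49849_g1_i1 had 18 counts in the control, 20, 57 and 13 in the dried libraries and 32, 19 and 10 in the resubmerged ones, and c83299_g1_i1 (904 nt, 0 cytosines and 279 guanines) had 15, 22, 51, 11, 23, 13 and 6 in the same order. Both groups differ in abundance too, and whether depth has a part in the difference was not tested.

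Members' levels were also correlated with each other, with no such value for other transcripts to set beside it. Over the 7 libraries, the median Pearson correlation of log2 levels between members was 0.61, with quartiles of 0.36 and 0.80, over 4560 pairs. These points share the libraries, the scaling and in part the reads, so the value is a description. The lowest median correlation with the other members was that of c33627_g2_i1 at -0.35, followed by c32747_g1_i1 at -0.31 and c58844_g1_i1 at -0.14.

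Near the limits of the rule the values were as follows. The member closest to 35% GC was c26820_g1_i2 at 34.9% and the nearest transcript outside was c31654_g1_i3 at 35.04%. The member of smallest mean count was c12889_g1_i1 at 10.3, and the nearest outside was c5767_g1_i1 at 8.14. A smallest count of 3 was held by c34165_g1_i1, and c84481_g1_i1, with 2, fell outside.

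The presence rule left out 64 low-GC transcripts whose mean count reached 10, from 57 genes, of which 47 had 0 counts in some library. They were counted far less: the median of their mean counts was 22.8, against 175 for the members. Under 3 counts were found in 30 of them in the control, in 21 to 23 in each dried library and in 40, 41 and 44 in the libraries resubmerged after 24, 36 and 72 h. Among those lost after resubmergence, c26385_g1_i1 (2487 nt) had 1162 counts in the control, 10086, 1277 and 3008 in the dried libraries, and 1, 0 and 0 in the resubmerged ones. Their median log2 ratio was -1.05 on resubmergence after 24 h, -0.91 after 36 h and -1.95 after 72 h, where 32 of 64 were at least 4-fold lower and the members' count was 3 of 96. The members' values after 72 h describe only transcripts that the presence rule kept.

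In the next band of GC content, 35 to 40%, 71 transcripts met the same count rules. Their level was ordered downward from 24 to 36 to 72 h of drying in 52.1%, and 52.1% were at least 4-fold lower after 72 h than after 24 h. On resubmergence their median log2 ratios were -0.67, -1.70 and -0.36 after 24, 36 and 72 h, and 31.0, 40.8 and 14.1% were at least 4-fold lower. The order within the dried libraries was thus found above 35% GC too. It was not found to that extent in the 64 low-GC transcripts that missed the presence rule: 29.7% of them had it, against 26.1% of all transcripts, 20 were at least 4-fold lower after 72 h than after 24 h and 21 were at least 4-fold higher. After 72 h of drying 40.6% of these 64 were at least 4-fold above the control. The values given here for the members therefore do not describe low-GC transcripts in general. With 1 transcript for each assembled gene, 82 members gave 68.3% in that order and a median of -2.47 on resubmergence after 24 h.

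The authors' deposited tables compare single libraries and give an adjusted p for each transcript, which compares 2 libraries and not 2 conditions. In the authors' deposited table for resubmergence after 24 h of drying, 2 members were lower at an adjusted p under 0.05, against 0.0512% of all transcripts with a p-value, namely c33247_g1_i1 (27.8-fold, adjusted p = 0.00570) and c34696_g1_i2 (16.7-fold, adjusted p = 0.0451). In the authors' deposited table for 24 h of drying against the control none was called, the smallest adjusted p being 0.391. Of 112651 transcripts with a p-value in it, 358 were called higher and 315 lower. That no member was called is near this share and is read as no result about the members. The authors' deposited table for 36 h of drying against the control called c24800_g1_i1 27.8-fold lower (adjusted p = 0.0478; 0.115% of all were called lower). In the authors' deposited table for 72 h of drying against the control, c34165_g1_i1 was 285-fold higher (adjusted p = 0.00254; 0.454% of all called higher) and c24800_g1_i1 was 135-fold lower (adjusted p = 0.00465; 0.0576% called lower). The authors' deposited table for resubmergence after 36 h called c33627_g2_i1 7738-fold higher (adjusted p = 0.0399; 0.0804% called higher). In the authors' deposited table for resubmergence after 72 h, c34165_g1_i1 was 507-fold lower (adjusted p = 4.33e-11) and c34165_g1_i2 was 23.4-fold lower (adjusted p = 0.000524), against 0.991% called lower.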

How the data were processed

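RNA from whole thalli was sequenced in 7 libraries (TruSeq-type kit, per the labels). Tools named in the submitters' processing notes are cutadapt, Bowtie2 and DESeq, with no versions. How the transcripts were assembled, annotated and counted is not stated in any source at hand. Per the file headers, the deposited expression table lists, by library, the read count and the FPKM of a transcript, and its length, base numbers and percent GC. The authors' comparison tables list fold (ratio), p-value and adjusted p-value between pairs of libraries. Isoforms appear to share reads, so counts of isoforms are not independent.

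Groups follow the treatment labels; the control's title begins as those of the 24 h libraries do. Counts were scaled by TMM in edgeR 4.0.16 (R 4.3.3). The 66046 transcripts whose mean count reached 10 were compared. Log2 ratios used a prior count of 2. Ratios of named members have exact Clopper-Pearson 95% intervals and shares have Wilson intervals, which cover counting error only, as reads are not independent molecules. The tests were edgeR's quasi-likelihood test on the 6 dried and resubmerged libraries with drying period as a block (2 residual degrees of freedom), on all 7 libraries by state (4), and on drying hours with state as a term (3). Periods stand in for replicates, so a p-value here reflects only how these libraries vary, which may be technical. The fits were also run on simulated counts. The outcome is not given here, so how large a change these tests could recover is left unstated. Alternatives were DESeq2 1.42.0, limma 3.58.1 (voom), total-count and DESeq2 scaling, no count filter, 1 transcript for each gene, a GC trend removed by a spline with 8 degrees of freedom, other limits of the rule and leaving out libraries. FPKM entered no test.

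Members named were the 8 with the highest mean CPM, up to 5 lower and 5 higher on resubmergence and 4 and 4 on drying with the largest ratio of the same sign in all 3 periods, the 3 of smallest range, the longest, the lowest in GC, the 3 genes with the most members and those next to each limit; others were named after their values were seen. The members and lists were chosen with earlier results of these data known. No sequence is printed, since base sequences of the transcripts were not used here.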

Additional observations from a re-analysis of the deposited data

Results flagged for a closer look

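In 5 members the level after resubmergence was at least 4-fold above the dried library after one drying period and at least 4-fold below it after another. The difference between the periods was not tested, since each period has 1 library for each state. The share of all transcripts compared that turned in this way is not given here, so 5 members are not read as unusually many. For c34165_g1_i1 the log2 ratio was 2.19 after 24 h, -3.82 after 36 h and -8.49 after 72 h. For c8158_g1_i1 it was -2.03, 2.35 and 0.69, on counts of 22, 9 and 5 in the dried libraries and 4, 58 and 12 in the resubmerged ones. For c17673_g1_i1 it was -2.87, 0.07 and 2.53, on counts of 3769, 997 and 195 against 524, 1122 and 1485. For c1815_g1_i1 it was -2.65, 1.01 and 2.52, on counts of 35, 18 and 4 against 4, 41 and 41. For c56795_g1_i1 it was -3.98, -1.58 and 2.65, on counts of 229, 57 and 7 against 13, 19 and 70. In the last 3 of these the dried counts were lower after each longer period, and the resubmerged counts were lowest after 24 h. Most of these members had few counts in some dried or resubmerged library. The smallest was 3 for c34165_g1_i1, 4 for c8158_g1_i1 and c1815_g1_i1, and 7 for c56795_g1_i1, against 195 for c17673_g1_i1.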

How the results depend on the processing

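The order of the libraries by the members' summed share held for the library dried for 24 h under every total tried, and the size of the shares did not. In the order control, dried 24, 36 and 72 h, resubmerged after 24, 36 and 72 h, the shares were 2.88, 9.25, 4.12, 1.68, 1.77, 1.65 and 1.79% of the totals implied by FPKM. With 1 transcript for each gene they were 2.47, 8.15, 3.56, 1.53, 1.80, 1.72 and 1.68%. At a limit of 40% GC they were 2.52, 9.11, 5.404, 2.07, 1.68, 1.46 and 1.81%, and without the top member 0.897, 2.75, 1.20, 0.505, 0.403, 0.384 and 0.449%. With no minimum in each library they were 1.08, 3.63, 1.51, 0.626 and 0.639% in the control, the 3 dried libraries and the one resubmerged after 36 h.

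Calls at an adjusted p depended on the tool. For resubmergence, calls over all transcripts numbered 8111 without the count filter, 6844 with DESeq2, 2 with 1 transcript for each gene, and 0 with limma-voom, with the GC trend removed and without the replicate block (drying period). Members called were 34 without the filter and 25 with DESeq2. The share of members at an unadjusted p was 49.0% without the filter and 7.29% with the GC trend removed, which also turned the median to 0.13. That trend was fitted with the members included, so here and below it removes part of their own change by construction. For drying against control DESeq2 called 3403 transcripts and 2 members, with 11.5% of members at an unadjusted p, and the median was -0.054 with limma-voom and -0.54 without the library dried for 24 h. For resubmerged against control DESeq2 called 2041 and 3 members, and the share was 9.38% with total counts, 11.5% without the filter, 12.5% with DESeq2 and 3.12% with the GC trend removed, where the median was 0.18. For drying hours, calls were 120 without the filter, 1744 with DESeq2 (3 members) and 1 with 1 transcript for each gene. The share there was 4.17% with total counts and with the GC trend removed, 25% without the filter, 20.8% with DESeq2 and 19.8% with ranks of the period.

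Leaving out libraries moved resubmergence calls over all transcripts between 0 and 45, members called between 0 and 1, and the share at an unadjusted p between 6.25 and 54.2%. It moved calls for drying against control between 0 and 107 (the latter without the library resubmerged after 72 h), its share between 5.21 and 10.4% and its median between -0.54 and 0.86. The share for resubmerged against control moved between 5.21 and 21.9%. Calls for drying hours moved between 0 and 2 and the share between 0 and 49.0%. The shares of all transcripts in these fits are not given here, so the moves are not read as a result about the members.

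Of the ratios between libraries, the near-zero medians turned sign: 36 h of drying against the control was -0.21 with total counts, -0.051 with DESeq2 size factors, -0.10 with 1 transcript for each gene, -0.32 under 30% GC and -0.16 with 10 counts in each library. Resubmergence after 72 h was 0.00448 with total counts, 0.033 under 30% GC, 0.031 with 1 transcript for each gene and 2.03 with the GC trend removed. That trend, fitted with the members included, also turned the medians of the libraries resubmerged after 24 and 72 h against the control to 0.29 and 0.055. At least 4-fold higher after 24 h of drying were 16.7% of members with total counts and 14.6% with the GC trend removed. With that trend, 6.25, 7.29 and 3.12% were lower in the resubmerged libraries than in the control, and 24.0, 12.5 and 2.08% lower than in the dried ones. A 2-fold limit gave 55.2 and 24.0% higher after 24 and 36 h of drying, 58.3% lower after 72 h, 43.8, 66.7 and 58.3% lower in the resubmerged libraries than in the control, and 75 and 16.7% lower on resubmergence after 36 and 72 h. Shares of all transcripts at the 2-fold limit are not given here. Over all of them the upper quartile of the log2 ratio after 36 h of drying against the control was 0.85, not far below 2-fold. The 24.0% of members is thus not read as a result about them. At the 4-fold limit, higher after 36 h of drying were 10.8% under 40% GC and 0% under 30%. Lower on resubmergence after 36 h were 21.4% under 30% GC. After 72 h the value was 7.78% under 40% GC, 0% under 30%, 1.69% with 10 counts in each library and 21.9% with no such minimum. Shares of all transcripts under these other settings are not given here either, so the values only show how the members' shares move. The causes were not tested. Depth limits the members of few counts, where a ratio's interval spans several fold.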
